A study of Mus musculus with 12 samples.

Results

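The members are 10 imprinted genes of the mouse, H19, Igf2, Cdkn1c, Dlk1, Meg3, Rian, Mirg, Peg3, Plagl1 and Grb10, out of 48709 genes in the count tables. They were taken by name, with the difference between mimic and control cultures already known from these libraries, so this difference is given for each of them as values with an SE, and no p is given for it. All 10 reached 5 counts in no fewer than 6 of the 12 libraries, and so did 18847 genes in all, which were the genes tested.

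Imprinted genes are expressed mainly from the allele of 1 parent, and most lie in clusters in which a differentially methylated control region sets which parental copy is read. H19 and Igf2 share enhancers and an insulator that is bound by CTCF on the maternal copy, and Cdkn1c lies in the neighbouring Kcnq1 domain. In the Dlk1-Dio3 domain the paternal copy gives Dlk1 and the maternal copy gives the non-coding RNAs Meg3, Rian and Mirg. In the mouse brain Igf2 is known for its expression in the choroid plexus and the meninges, where both copies are read.

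RNA was sequenced in 12 libraries from primary hippocampal cultures of embryonic day 17 CD1 mice, a wild-type outbred stock, in which the hippocampi of several embryos were pooled. At day 10 in vitro the cultures received lipid nanoparticles with either a mimic of miR-148a-3p (6 libraries, mimic) or a negative control oligonucleotide (6 libraries, control), and they were harvested 48 h later at day 12. By the methods of the study, ApoE4 protein was given with the particles in both groups. The comparison asks which transcripts differ when this microRNA, a member of the blood signature under study, is raised in hippocampal cells.

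The oligonucleotides are shown first because everything that follows compares them. The sequences were copied from the reagent list of the study, in which the mimic is identical to the RefSeq entry for mmu-miR-148a-3p. The series text calls the control a siRNA, so that the listed control sequence, and with it the control sites in Igf2 and Meg3, is assumed and not known to be the one given to these cultures. Capitals mark the seed (bases 2 to 8), through which a microRNA pairs with its targets.

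miR-148a-3p mimic: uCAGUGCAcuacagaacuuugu

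negative control: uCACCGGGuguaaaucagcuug

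Seed sites were looked for in the longest 3 prime UTR of the 6 protein-coding members and in the longest transcript of the 4 non-coding ones. None of the 6 coding members, Igf2, Cdkn1c, Dlk1, Peg3, Plagl1 and Grb10, held a site for the mimic (TGCACTG, or GCACTGA) in its 3 prime UTR, against 21.9% of the 15082 tested genes that have one. The non-coding transcripts held 4 mimic sites, of which Meg3 had 2, H19 and Rian 1 each, and Mirg 0. The negative control had a site in the 3 prime UTR of Igf2, where 4.42% of the 3 prime UTRs hold one, and another in the Meg3 transcript. The share of whole non-coding transcripts with a site was not computed, so the sites in H19, Meg3 and Rian have no background here. The sites are given with the bases around them (GRCm38, coordinates of the site itself), capitals marking the site. They are matches of letters only.

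H19, mimic site, exon, minus strand, chr7:142575808-142575814: actaagtcgatTGCACTGgtttggagtccc

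Meg3, mimic site, exon, plus strand, chr12:109546091-109546097: gctctcactagTGCACTGctgtgtgcacat

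Meg3, mimic site, exon, plus strand, chr12:109570380-109570386: ggtgacaatcaGCACTGActtagaagttac

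Rian, mimic site, exon, plus strand, chr12:109650257-109650263: agaggttgagaGCACTGActgttctccctg

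Igf2, negative control site, 3 prime UTR, minus strand, chr7:142652672-142652678: cacatggtgagCCCGGTGctccccaaccac

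Meg3, negative control site, exon, plus strand, chr12:109570088-109570094: atgtggataggCCGGTGActaggaggtctt

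The members also carry microRNA genes of their own. RefSeq places 26 mature microRNAs from 14 hairpins within Mirg, 8 of them in exons, 6 in introns of Rian, 3 in exons of Meg3, 2 in an intron of Igf2 and 2 in an exon of H19. None of them has the seed of miR-148a-3p. The pair in H19 and the pair of miR-134 in Mirg are shown, with the seed in capitals, because their hosts can be read in these libraries while the mature microRNAs cannot, as poly(A) libraries do not hold them.

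mmu-miR-675-5p (H19): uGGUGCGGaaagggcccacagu

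mmu-miR-675-3p (H19): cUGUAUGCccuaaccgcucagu

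mmu-miR-134-5p (Mirg): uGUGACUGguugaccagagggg

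mmu-miR-134-3p (Mirg): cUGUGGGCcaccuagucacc

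Promoter sequence (250 bases before to 50 after a start site) was found for 8 of the 10 members in RefSeq on GRCm38.p6, in 13 windows; H19 and Cdkn1c are named only. ZFP57, a zinc-finger protein that binds methylated imprinting control regions, recognises TGCCGC, which was present on either strand in 4 of the 13 windows (1 each of Meg3, Plagl1, Grb10 and Igf2) and in 11.6% of all 32851 promoters of this length. The motif GGGGCCCC of PLAGL1, itself a member and a transcription factor, reads the same on both strands and was present in 1 window, that of Peg3, and in 1.08% of all promoters. No match of one motif overlapped a match of the other. The window of Dlk1 and that of Meg3 with the ZFP57 motif are shown because the ratio of these neighbours is followed within each library. The window of Peg3 is shown because it holds the PLAGL1 motif. Capitals mark a motif, read as GCGGCA where it lies on the other strand.

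Dlk1, plus strand, chr12:109452573-109452872: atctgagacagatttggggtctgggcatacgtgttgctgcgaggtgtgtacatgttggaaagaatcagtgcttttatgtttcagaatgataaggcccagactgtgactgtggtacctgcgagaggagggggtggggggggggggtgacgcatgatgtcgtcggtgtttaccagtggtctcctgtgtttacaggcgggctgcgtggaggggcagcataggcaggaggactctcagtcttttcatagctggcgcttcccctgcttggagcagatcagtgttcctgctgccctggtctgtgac

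Meg3, plus strand, chr12:109540746-109541045: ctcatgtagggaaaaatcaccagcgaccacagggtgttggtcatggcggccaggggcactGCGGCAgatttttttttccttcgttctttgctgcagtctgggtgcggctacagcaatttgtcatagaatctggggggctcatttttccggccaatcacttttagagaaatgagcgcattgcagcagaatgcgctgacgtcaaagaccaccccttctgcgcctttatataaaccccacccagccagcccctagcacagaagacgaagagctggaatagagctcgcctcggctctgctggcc

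Peg3, minus strand, chr7:6730370-6730669: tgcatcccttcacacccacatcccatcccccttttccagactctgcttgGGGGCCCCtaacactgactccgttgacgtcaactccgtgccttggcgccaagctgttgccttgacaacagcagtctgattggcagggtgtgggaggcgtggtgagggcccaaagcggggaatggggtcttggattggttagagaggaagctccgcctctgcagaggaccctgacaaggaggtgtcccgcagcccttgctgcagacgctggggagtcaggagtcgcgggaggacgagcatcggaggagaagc

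The Meg3 window shown held 13 CpG dinucleotides and 1 ZFP57 hexamer, the Dlk1 window 9 CpG and neither motif, and the Peg3 window 13 CpG, beside a median of 7 CpG over all promoters. Another Meg3 window, chr12:109545148-109545447, is not shown and held 1 CpG and neither motif. DNA methylation was not measured in these libraries, and the reads were not assigned to a parental copy, so the values below are sums over both copies.

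Libraries held from 20018234 to 37149112 counts, and levels are given as counts relative to the scaled library total, as CPM. The label names primary hippocampal neurons, and the neuron markers were abundant at a summed 5338 to 5939 CPM in control and 5529 to 5810 CPM in mimic. The cultures also held RNA of other cells: 6 astrocyte markers summed to 4382 to 4842 CPM in control and 5057 to 5562 CPM in mimic, 6 oligodendrocyte lineage markers to 377 to 670.3 CPM and 757 to 952 CPM, and 5 proliferation markers to 151 to 188 CPM and 321 to 342 CPM. Of the non-neural lists, the 8 fibroblast and meningeal markers summed to 144 to 215 CPM in control and 86.4 to 225 CPM in mimic, the 7 mural and contractile markers to 39.4 to 122 CPM and 22.0 to 31.2 CPM, the 5 endothelial markers to 46.5 to 68.5 CPM and 28.3 to 50.7 CPM, the 6 choroid plexus markers to 216 to 421 CPM and 191 to 359.7 CPM, and the 5 microglia markers to 7.66 to 9.69 CPM and 7.22 to 14.2 CPM. No marker was at 0 in every library, although the endothelial marker Cldn5 had 1 count in all libraries together. Some sums were carried mostly by 1 gene. These were Ttr for the choroid plexus (341.4 of 359.7 CPM in mimic replicate 5), Kdr for the endothelial and Olig1 for the oligodendrocyte lineage markers. In such bulk libraries, fewer cells of a type and less RNA per cell cannot be told apart.

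Across the control libraries the members spanned a wide range of levels per kilobase of exon. Meg3 was highest at 176.5 CPM per kilobase, followed by Peg3 at 36.0 and Rian at 28.0 CPM per kilobase, and these 3 did not overlap with their neighbours in the order. Plagl1 (11.3), Grb10 (8.60) and Igf2 (7.70 CPM per kilobase) came next, Grb10 overlapping both, and Igf2 stood 3.40-fold above Mirg with no overlap. Mirg (2.26), Dlk1 (1.53), Cdkn1c (1.02) and H19 (1.01 CPM per kilobase) were lowest, each overlapping the next, and Cdkn1c and H19 had nearly the same mean. Meg3 lay at percentile 99.3 of the tested genes on this scale, and H19 at percentile 32.7.

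Between the groups, the mean level of H19 and Mirg was higher in the mimic libraries and that of the other 8 members was lower, with log2 differences from −1.15 (Dlk1) to 0.53 (H19) and a median of −0.16, beside −0.01 over all tested genes. In the fit of edgeR over all genes, 1 member (H19) lay on the called side with mimic higher and 4 (Dlk1, Cdkn1c, Plagl1 and Grb10) with mimic lower, the latter count ranging from 2 to 5 when 1 library was left out. DESeq2 put 5 members on the lower side, with Meg3 added. Of all 18847 tested genes 22.2% were called, 11.5% higher and 10.7% lower. The groups did not overlap for H19 (mimic higher) and for Dlk1 (mimic lower), where 13.3% of all tested genes did not overlap, 7.43% with mimic higher and 5.83% with mimic lower. As the members were chosen on this contrast, nothing is read from these counts.

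**Figure D1:**
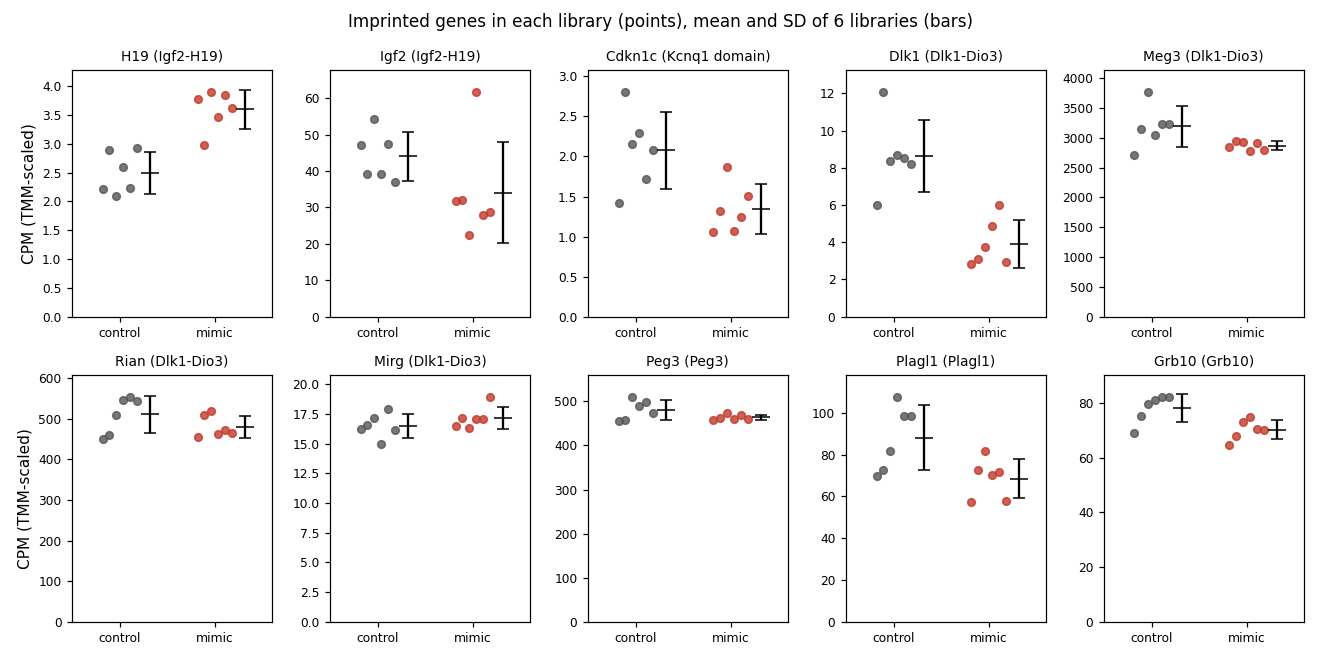
CPM of each of the 10 imprinted genes in the 6 control (grey) and 6 mimic (red) libraries, each panel on its own linear axis from 0, with the mean and SD beside the points and the imprinted domain in brackets. H19 sits higher in all 6 mimic libraries and Dlk1 lower, while 1 mimic library stands at 61.7 CPM of Igf2 above the other 5.

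H19, a maternally expressed long non-coding RNA (ENSMUSG00000000031, GRCm38 chr7:142575529-142578143, minus strand), was a low transcript with 44 to 131 counts per library. Its level was 2.10 CPM in the lowest control library, 2.42 CPM at the median and 2.93 CPM in the highest, against 2.97, 3.70 and 3.90 CPM in mimic. All 6 mimic libraries lay above all 6 control libraries, by a narrow margin between the lowest mimic and the highest control library. The means were 2.50 ± 0.363 and 3.60 ± 0.343 CPM (SD, n = 6), a log2 difference of 0.53 (SE 0.10) or 1.45-fold. In the annotation 9.15% of its exon bases are shared with other genes, among them the Mir675 hairpin on the same strand.

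Igf2, the paternally expressed growth factor (ENSMUSG00000048583, chr7:142650766-142666816, minus strand), ran from 37.0 CPM over a median of 43.2 to 54.3 CPM in control. In mimic it ran from 22.5 CPM over a median of 30.2 to 61.7 CPM. The groups overlapped because of 1 library: mimic replicate 4 had the highest level of all 12, and the other 5 mimic libraries, at 22.5 to 31.9 CPM, lay below every control library. The log2 difference was −0.37 (SE 0.22) with all libraries and −0.63 without mimic replicate 4. The annotation shares 64.5% of the exon bases of Igf2 with other genes, nearly all with a read-through gene that is not among the counted genes; of the counted genes, only the antisense Igf2os overlaps it.

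The level of Igf2 moved with the fibroblast and meningeal markers inside the mimic group. The summed fibroblast and meningeal markers were also highest in mimic replicate 4, at 225 CPM, and lowest in mimic replicate 3, at 86.4 CPM, which had the least Igf2. Over the 6 mimic libraries the log2 levels gave r = 0.937 and rho = 0.943, with an exact permutation p of 0.00278 (two-sided, 720 pairings) for r and 0.0167 for rho, or 0.0556 and 0.167 after adjustment over 20 relations, so that neither passed 0.05. Without the 2 libraries farthest from the median r was 0.918, and in the control group r was 0.437 and rho 0.486 (exact permutation p = 0.404 and 0.356), with r = 0.0764 without the 2 control libraries farthest from the median. Of the 8 markers, Slc6a13 was higher in mimic and Postn was lower, and the other 6, which include the collagens Col1a1, Col1a2 and Col3a1, did not pass. The choroid plexus, mural and endothelial sums were highest in another library, mimic replicate 5 (359.7, 31.2 and 50.7 CPM), where Igf2 was at 27.8 CPM, the second lowest of the group. The part of these cells in the Igf2 values was not tested.

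H19 and Igf2 went in opposite directions within the control group. Control replicate 3 had the least H19 (2.10 CPM) and the most Igf2 (54.3 CPM), and control replicate 6 the most H19 (2.93 CPM) and the least Igf2 (37.0 CPM). The log2 levels gave r = −0.954 and rho = −0.943 (exact permutation p = 0.00556 and 0.0167, adjusted 0.0556 and 0.167), and r = −0.981 without the 2 libraries farthest from the median. In mimic r was −0.356 and rho −0.886 (exact permutation p = 0.372 and 0.0333, adjusted 0.622 and 0.222), with r = −0.568 without its 2 farthest libraries. The 4 adjusted values of this pair miss 0.05, which does not show that the levels were unrelated.

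**Figure D2:**
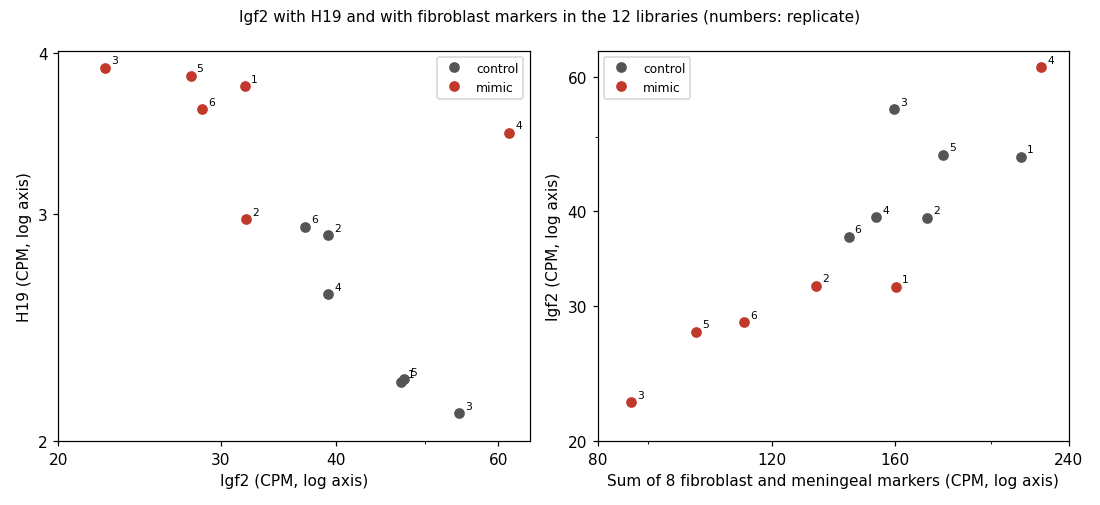
Left, H19 against Igf2, and right, Igf2 against the sum of 8 fibroblast and meningeal markers, in CPM on log axes, with 1 point per library (control grey, mimic red) and its replicate number. H19 is lower where Igf2 is higher among the control libraries (r = −0.954), and mimic replicate 4 is highest on both axes of the right panel, at 225 and 61.7 CPM.

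Within a library, H19 per kilobase was 13.2% of Igf2 as a geometric mean over the control libraries and 25.9% over the mimic libraries. On the log2 scale this ratio was −2.92 ± 0.42 in control and −1.95 ± 0.56 in mimic (SD, n = 6), a difference of 0.97. The groups overlapped, since mimic replicate 4 had a ratio of −2.93, close to the control mean.

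Cdkn1c, the maternally expressed inhibitor of cyclin-dependent kinases p57 (ENSMUSG00000037664, chr7:143458339-143461050, minus strand), had 28 to 80 counts per library. It ran from 1.41 CPM over 2.12 to 2.80 CPM in control and from 1.06 CPM over 1.29 to 1.87 CPM in mimic. The groups overlapped, with 4 mimic libraries below all control libraries and 4 control libraries above all mimic libraries. The means were 2.08 ± 0.480 and 1.35 ± 0.310 CPM (SD, n = 6), a log2 difference of −0.62 (SE 0.17). The antisense gene Gm44732 covers 30.7% of its exon bases, and without strand its reads cannot be told apart from those of Cdkn1c. The 5 proliferation markers were all higher in mimic, at sums of 321 to 342 CPM against 151 to 188 CPM, and their part in the Cdkn1c values was not tested.

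The other 7 tested genes of this region of chromosome 7 gave no call by edgeR with all libraries. They were Ascl2, Cd81, Tssc4, Kcnq1, Kcnq1ot1, Slc22a18 and Nap1l4, with log2 differences from −0.70 (Kcnq1, 8.67 counts on average) to 0.18 (Tssc4). At an unadjusted p under 0.05 there was 1 higher and 2 lower, and DESeq2 called 1 lower, Nap1l4, a histone chaperone, at −0.08 (edgeR adjusted p = 0.0656), which edgeR also called with a filter of 20 counts (adjusted p = 0.0334). When 1 library was left out, edgeR called Tssc4 higher (0.27, adjusted p = 2.49e-05) and Kcnq1ot1 lower (−0.24, adjusted p = 0.0465) without control replicate 1, and Kcnq1 lower (−0.89, adjusted p = 0.0261) without control replicate 4. With all libraries Kcnq1ot1, the non-coding RNA that silences its neighbours on the paternal copy, had 24.9 ± 5.98 CPM in control and 22.8 ± 1.53 CPM in mimic (edgeR adjusted p = 0.512). Ins2 and Phlda2 were below the filter.

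Dlk1, the paternally expressed transmembrane protein that resembles Notch ligands (ENSMUSG00000040856, chr12:109452823-109463336, plus strand), had the largest log2 difference of the 10. It ran from 6.01 CPM over a median of 8.44 to 12.1 CPM in control, and from 2.81 CPM over a median of 3.41 to 6.00 CPM in mimic. All mimic libraries lay below all control libraries, but the highest mimic and the lowest control library were separated by less than 0.01 CPM, with 178 and 119 counts behind them. The means were 8.64 ± 1.95 and 3.91 ± 1.27 CPM (SD, n = 6), a log2 difference of −1.15 (SE 0.18) or 2.21-fold lower. No other annotated gene shares its exons.

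The mural and contractile, endothelial and choroid plexus sums shared part of the order of Dlk1, which was noticed after the values were seen. Control replicate 2 had the most Dlk1 (12.1 CPM) and the highest mural and contractile sum (122 CPM), and control replicate 1 the least Dlk1 (6.01 CPM) and the lowest mural and contractile sum (39.4 CPM). In mimic, replicate 5 had both the most Dlk1 (6.00 CPM) and the highest mural and contractile sum (31.2 CPM), whereas the least Dlk1 was in replicate 1 (2.81 CPM) and the lowest such sum in replicate 6 (22.0 CPM). The endothelial sum had the same order as Dlk1 over all 6 mimic libraries, from 28.3 CPM in replicate 1 to 50.7 CPM in replicate 5. That order was the order of Kdr, which held most of the sum (26.6 and 49.8 CPM in these libraries). Pecam1, Cdh5 and Flt1, near 1 CPM or below, did not follow it, and Pecam1 was highest in mimic replicate 1 (1.03 CPM), where Dlk1 was lowest. In control the endothelial sum was lowest in replicate 1 (46.5 CPM) and highest in replicate 3 (68.5 CPM). The choroid plexus sum in mimic was lowest in replicate 6 (190.7 CPM) and highest in replicate 5 (359.7 CPM), and in control it was lowest in replicate 1 (216 CPM) and highest in replicate 3 (421 CPM), with 304 CPM in replicate 2, which had the most Dlk1. Of the 7 mural and contractile markers, 5 were tested; Acta2, Tagln and Cnn1, which encode contractile proteins, were lower in mimic, Rgs5, a pericyte marker, was higher, Myh11 did not pass, and Kcnj8 and Abcc9 were below the filter. Of the endothelial list, Kdr and Flt1 were lower and Pecam1 and Cdh5 did not pass. The part of these cells in the Dlk1 values was not tested.

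Meg3, the maternally expressed non-coding RNA of the domain (ENSMUSG00000021268, chr12:109541001-109571726, plus strand), was the most abundant member, with 53824 to 139868 counts per library. It ran from 2718 CPM over 3192 to 3768 CPM in control and from 2785 CPM over 2879 to 2945 CPM in mimic. All 6 mimic libraries lay within the control range, in its lower part, with 5 control libraries above all of them and 1 below. Its coefficient of variation was 10.7% in control and 2.43% in mimic. Over all genes, too, the least alike libraries were in control. The chi-square per degree of freedom reached 32.7 between control replicates 1 and 4, and 7.77 between mimic replicates 3 and 6. The log2 difference was −0.15 (SE 0.06), with −0.20 when control replicate 1 was left out and −0.10 when control replicate 3 was, the ends of the range over the 12 libraries.

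Rian, which carries snoRNA genes (ENSMUSG00000097451, chr12:109603940-109661716, plus strand), ran from 448.8 CPM over 526.7 to 552.4 CPM in control and from 453.9 over 468.0 to 518.6 CPM in mimic. The log2 difference was −0.09 (SE 0.05), with overlapping groups. Mirg, the host of a large microRNA cluster (ENSMUSG00000097391, chr12:109729764-109749460, plus strand), ran from 15.0 over 16.4 to 18.0 CPM and from 16.3 over 17.1 to 18.9 CPM. Its log2 difference was 0.06 (SE 0.05), and its groups overlapped as well.

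Compared within each library, the groups overlapped for the ratios among the 3 non-coding RNAs and not for Dlk1 over Meg3. Rian was 15.9% of Meg3 per kilobase in control and 16.6% in mimic (geometric means), a log2 difference of 0.06. That difference was 0.01 without control replicate 3 and 0.09 without control replicate 4, the ends of its range over the libraries left out. Mirg was 1.29% and 1.48%, with log2 ratios of −6.28 ± 0.14 and −6.07 ± 0.10 (SD, n = 6), a difference of 0.21 that exceeds the SD of either group. Dlk1 was 0.851% of Meg3 in control and 0.418% in mimic, a log2 difference of −1.03, and no mimic library reached the control range. These ratios are free of library scaling. Meg3 and Rian gave r = 0.423 in control and 0.806 in mimic (exact permutation p = 0.467 and 0.0625, adjusted 0.622 and 0.313), and without the 2 farthest libraries of each group 0.118 and 0.871.

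**Figure D3:**
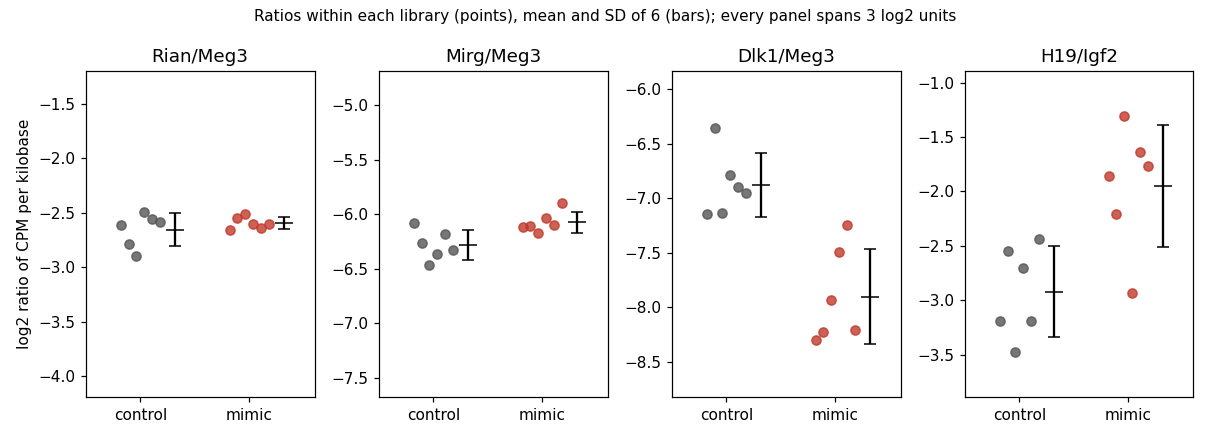
Log2 ratios of CPM per kilobase within each library for Rian, Mirg and Dlk1 over Meg3 and for H19 over Igf2 (control grey, mimic red, mean and SD of 6 beside the points), every panel spanning 3 log2 units. The means of Dlk1/Meg3 are −6.88 and −7.90 with no overlap, and those of Rian/Meg3 are −2.66 and −2.59.

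Of the other tested genes of the domain, Dio3, the deiodinase that inactivates thyroid hormone, fell by 0.62 (log2, with an SE of 0.19 and an edgeR adjusted p of 0.0221), from 0.816 ± 0.200 to 0.536 ± 0.0895 CPM. It had 20.3 counts on average, its groups overlapped, and the call was lost without control replicate 4, at −0.48. Rtl1, a retrotransposon-derived gene of the paternal copy, had a log2 difference of −0.21 (edgeR adjusted p = 0.0748) and was called lower without control replicate 4 (−0.25). Begain had a log2 difference of −0.12 (edgeR adjusted p = 0.301), which was −0.04 without control replicate 1 and −0.16 without control replicate 5.

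Peg3, a paternally expressed zinc-finger gene (ENSMUSG00000002265, chr7:6703892-6730431, minus strand), was the steadiest member, with coefficients of variation of 4.59% in control and 1.37% in mimic. It ran from 454.3 over 480.6 to 508.9 CPM in control and from 457.0 over 461.1 to 473.5 CPM in mimic. The groups overlapped, and the log2 difference was −0.05 (SE 0.03). In the same domain the maternally expressed Zim1 fell by 0.33 (log2, with an SE of 0.08 and an edgeR adjusted p of 0.00621), with overlapping groups, while Usp29 was at −0.08 and Zfp264 at 0.09 without a call (edgeR adjusted p = 0.418 and 0.869).

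Plagl1, a paternally expressed zinc-finger transcription factor (ENSMUSG00000019817, chr10:13060504-13131694, plus strand), ran from 69.6 over 90.2 to 107.4 CPM in control and from 57.3 over 70.8 to 81.8 CPM in mimic. The groups overlapped, with 4 control libraries above all mimic libraries and 2 mimic libraries below all control libraries. The log2 difference was −0.36 (SE 0.12), and it ran from −0.42 to −0.30 when 1 library was left out. Plagl1 left the called side with no low-count filter, without control replicate 4, 5 or 6, and without mimic replicate 1 or 6.

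Grb10, an adaptor that dampens insulin and IGF1 receptor signalling and is read from the paternal copy in neurons (ENSMUSG00000020176, chr11:11930508-12038683, minus strand), ran from 69.0 over 80.3 to 82.0 CPM in control and from 64.8 over 70.3 to 74.7 CPM in mimic. The groups overlapped through control replicate 1, the lowest control library, and the other 5 control libraries lay above all mimic libraries. The log2 difference was −0.16 (SE 0.05), and it ran from −0.19 to −0.13 when 1 library was left out. Grb10 left the called side without control replicate 5 or 6 and without mimic replicate 1 or 2. Next to it, Ddc, the decarboxylase that makes dopamine and serotonin, rose by 0.60 (log2, with an SE of 0.14 and an edgeR adjusted p of 0.00450) with no overlap between the groups, and Cobl was at −0.25 (edgeR adjusted p = 0.0914), called lower without control replicate 1 or 6 (−0.29 and −0.30).

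Other imprinted genes were tested in full. Of 53 listed, 50 passed the filter; 5 rose, 8 fell and 37 did not pass, which is 26.0% called beside 22.2% over all tested genes. Their median log2 difference was −0.07, beside −0.01 for all tested genes. Peg12, a paternally expressed relative of the FRAT proteins, rose most, from 2.43 ± 0.242 to 5.00 ± 0.484 CPM (log2 difference 1.04, SE 0.09, edgeR adjusted p = 2.42e-07), with no overlap. Igf2r, the receptor that clears IGF2 from the cell surface, rose from 108.6 ± 3.92 to 133.0 ± 6.42 CPM (log2 difference 0.29, edgeR adjusted p = 2.55e-05), and Rasgrf1, an exchange factor for RAS, by 0.36 (edgeR adjusted p = 3.12e-04).

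Among the imprinted genes that fell, Airn, the antisense RNA that overlaps Igf2r, fell by 0.32 on the log2 scale (edgeR adjusted p = 0.0216), and the call was lost without control replicate 5 or without mimic replicate 6. Airn and Igf2r lie on opposite strands, so that their reads cannot be told apart where they overlap. Sgce, the epsilon-sarcoglycan, fell by 0.23 (edgeR adjusted p = 8.54e-04). The other calls were Mest, which rose by 0.11, and Ndn, H13, Nnat and Blcap, which fell by 0.12 to 0.14 on the log2 scale.

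**Figure D4:**
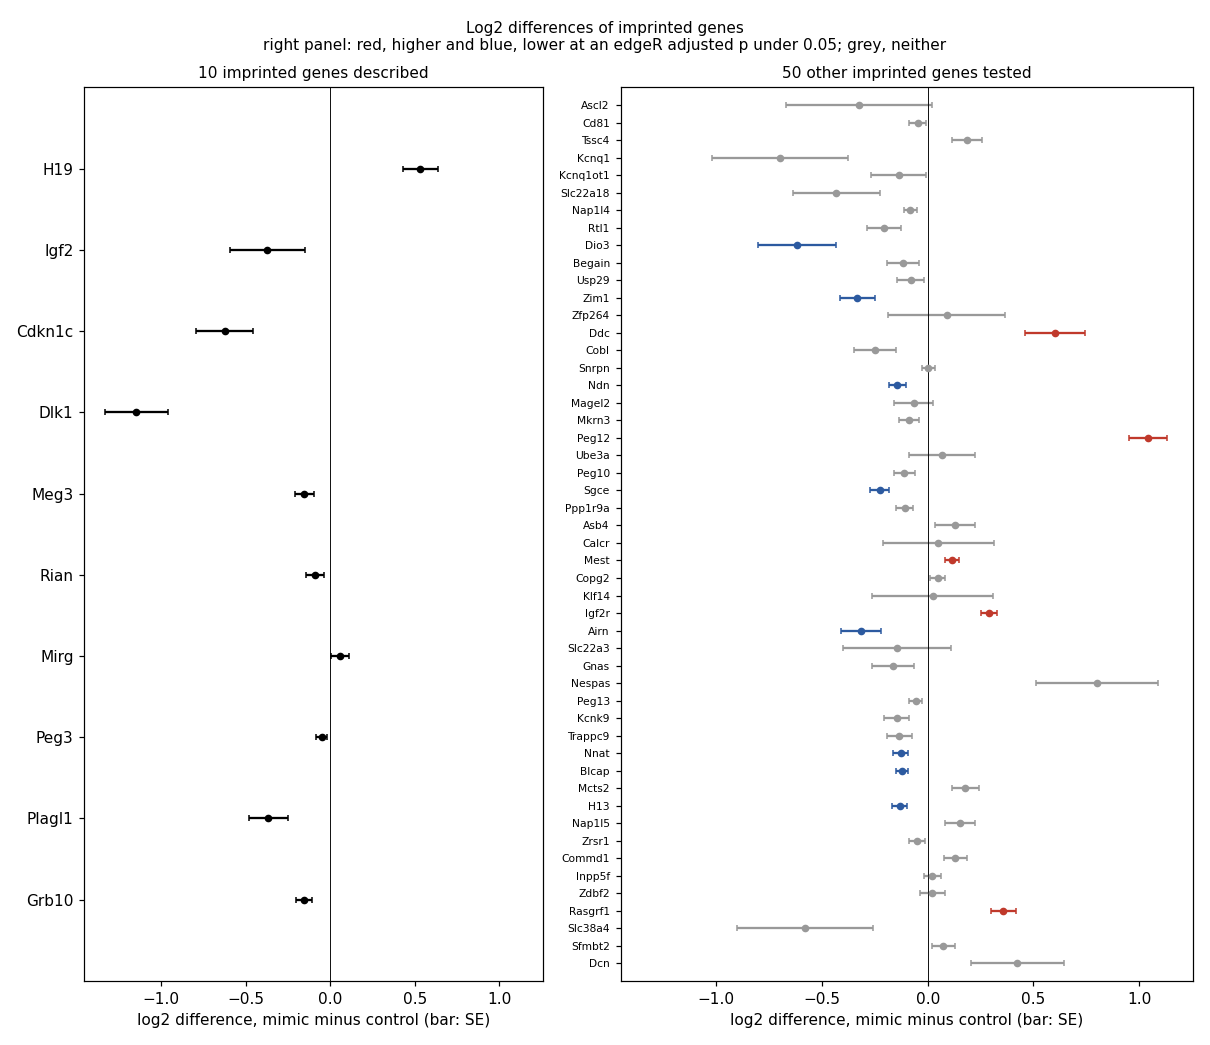
Log2 difference (mimic minus control) with its SE for the 10 imprinted genes (left, black, with no p) and for the 50 other imprinted genes tested (right, red higher and blue lower at an edgeR adjusted p under 0.05, grey neither). Differences of the 10 run from −1.15 for Dlk1 to 0.53 for H19, and 5 of the 50 rose and 8 fell.

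Genes around the IGF ligands showed calls in both directions. Of the 18 tested genes of the insulin-like growth factor axis, 7 rose and 4 fell (61.1% called, beside 22.2% over all tested genes). This list and those that follow were chosen with earlier results of these data known, so nothing is read from their shares. Among the receptors, Insr rose by 0.19 along with Igf2r, and Igf1r, at 0.09, did not pass (edgeR adjusted p = 0.126). Of the 6 tested binding proteins, which hold the ligands outside the cell, Igfbp4 rose from 113.6 ± 24.3 to 214.8 ± 6.93 CPM (log2 difference 0.92, edgeR adjusted p = 9.28e-06) and Igfbp3 from 218 ± 4.72 to 297 ± 11.6 CPM (0.44, edgeR adjusted p = 3.95e-08), both with no overlap. Igfbp7 fell from 18.8 ± 2.42 to 11.3 ± 2.10 CPM (log2 difference −0.72, edgeR adjusted p = 1.36e-04), and Igfbp5 by 0.52 on the log2 scale (edgeR adjusted p = 0.00912). Igfbp2, the most abundant of them in counts, and Igfbp6 did not pass.

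Among the adaptors below these receptors, Irs2 and Shc1 rose by 0.20 and 0.25, and Irs1 and Grb14, a relative of Grb10, fell by 0.17 and 0.19 on the log2 scale. Igf2bp3, which binds Igf2 mRNA, was at 0.21 with an edgeR adjusted p of 0.0461, and lost the call in 11 of its 17 alternative settings. Igf1, the other ligand, was at −0.28 (edgeR adjusted p = 0.282), and Ins2 was below the filter. Without mimic replicate 2, the count of genes called lower on this list was 7 in place of 4. Igfbp7 was highest in control replicate 2 (23.7 CPM), as was the mural and contractile sum (122 CPM). Control replicate 1, however, had the lowest such sum of control (39.4 CPM) and the second highest Igfbp7 (18.6 CPM). In mimic, Igfbp7 was highest in replicate 4 (14.4 CPM) and that sum in replicate 5 (31.2 CPM). Between the groups the mural and contractile sum was lower in mimic and the astrocyte and oligodendrocyte lineage sums higher, all with no overlap. The endothelial sum had a median of 39.0 CPM in mimic and 63.0 CPM in control, with overlap. The part of these cells in the result was not tested.

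Around Dlk1, 6 of 16 tested genes of the Notch pathway rose and 3 fell (56.2% called, beside 22.2% over all tested genes). The receptor Notch1 rose from 84.1 ± 10.2 to 116.1 ± 7.29 CPM (log2 difference 0.47, edgeR adjusted p = 5.66e-05), and the ligands Dll3, Jag1 and Dll1 by 0.75, 0.57 and 0.48. The Notch target genes Hes1 and Hes5 rose by 0.51 and 0.39. By contrast, Hey2, also a target gene, fell by 0.38, the ligand Jag2 by 0.18, and Dner, a transmembrane protein of neurons counted among the Notch ligands, by 0.21 on the log2 scale. Dlk2, the closest relative of Dlk1, was at −0.20 and did not pass (edgeR adjusted p = 0.151). Between the groups, 4 of 6 astrocyte markers rose and Gfap fell, and 5 of 6 oligodendrocyte lineage markers rose. Within the control group, replicate 1 had the most Notch1 (103.0 CPM), Dll1, Jag1, Dll3, Hes1 and Hes5, and an oligodendrocyte lineage sum of 670.3 CPM beside 377 to 406 CPM in the other 5 control libraries and 757 to 952 CPM in mimic. Most of that sum was Olig1, at 593.8 CPM in replicate 1 and 306.1 to 339.4 CPM in the other 5. Olig2 and Cspg4 were also highest of control in replicate 1, while Sox10, Pdgfra and Mbp were not. The astrocyte sum of replicate 1, at 4524 CPM, was the second lowest of control. Without that library 7 Notch genes were called higher in place of 6. The part of these cells in the result was not tested.

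Beside Cdkn1c, 6 further inhibitors of cyclin-dependent kinases were tested. Cdkn2c (p18) rose from 11.1 ± 1.26 to 21.7 ± 0.966 CPM (log2 difference 0.98, edgeR adjusted p = 6.60e-09) and Cdkn1a (p21) from 45.7 ± 1.64 to 67.0 ± 2.73 CPM (0.55, edgeR adjusted p = 1.35e-08), both with no overlap. Cdkn2b (p15) fell by 0.56 on the log2 scale (edgeR adjusted p = 6.51e-04), with no overlap. Cdkn1b and Cdkn2a, at −0.16 and −0.28, missed the threshold (edgeR adjusted p = 0.0526 and 0.0602), and Cdkn2d was at −0.0010 (edgeR adjusted p = 0.994). That is 50.0% called on this list, beside 22.2% over all tested genes. The 1 inhibitor called lower became 2 with DESeq2, 3 with a filter of 20 counts, and 2 without control replicate 1, 2 or 3 or without mimic replicate 3. All 5 proliferation markers rose as well (sums of 151 to 188 CPM in control and 321 to 342 CPM in mimic). Cdkn2b was highest in control replicate 2 (11.6 CPM), as was the mural and contractile sum (122 CPM), which was lower in mimic (22.0 to 31.2 CPM). Within mimic, Cdkn2b was highest in replicate 4 (7.79 CPM) and that sum in replicate 5 (31.2 CPM). The part of these markers in the result was not tested.

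Of 12 listed genes that read or keep imprints, 10 were tested, 4 rose and 1 fell (50.0% called, beside 22.2% over all tested genes). All 3 genes of the insulator and cohesin group rose: Ctcf by 0.30 (edgeR adjusted p = 2.62e-05), Rad21 by 0.40 (edgeR adjusted p = 3.03e-07) and Smc3 by 0.19 (edgeR adjusted p = 0.00297). Uhrf1, which brings the maintenance methyltransferase to newly copied DNA, rose from 14.2 ± 1.02 to 23.8 ± 0.695 CPM (log2 difference 0.76, edgeR adjusted p = 8.99e-09), and Dnmt1 itself was at −0.08 and did not pass (edgeR adjusted p = 0.166). Zfp57 fell by 0.19 on the log2 scale (edgeR adjusted p = 4.28e-04), with no overlap, and its partners Trim28 and Setdb1 and the related reader Zfp445 did not pass. Dnmt3l and Dppa3 were below the filter. The proliferation markers rose together with Uhrf1, Rad21 and Smc3, and their part in the result was not tested.

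**Figure D5:**
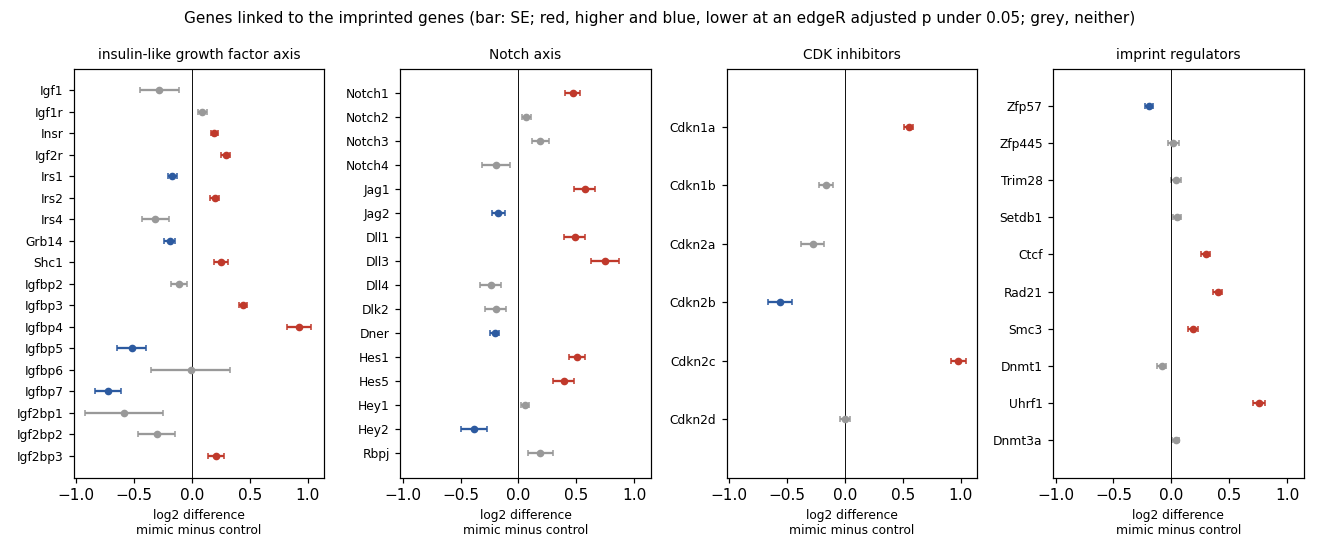
Log2 difference (mimic minus control) with its SE for the tested genes of the insulin-like growth factor axis, the Notch axis, the CDK inhibitors and the imprint regulators (red higher and blue lower at an edgeR adjusted p under 0.05, grey neither). Calls go in both directions on all 4 lists, 7 higher and 4 lower of 18 on the first.

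The genes most like H19, Igf2 and Meg3 were sought by the correlation of log2 CPM over the 12 libraries after taking away each group mean, among genes with at least 100 counts on average. For H19 these were Stat3 (r = 0.927), Akap12 (0.923), A2m (0.900), Serpina3n (0.882) and Ccnd1 (0.811), out of 12371 genes. For Igf2 they were Nid1 (r = 0.904), Col6a3 (0.869), Col1a2 (0.846), Tk2 (0.845) and Col7a1 (0.844), of which Col1a2 is also on the fibroblast list, as is the imprinted Dcn. For Meg3 they were Fam135b (r = 0.932), Nktr (0.916), A230057D06Rik (0.902), Pms2 (0.900) and Dhtkd1 (0.900), out of 12370 genes for Igf2 and Meg3. These are the highest of many values over 12 libraries that share their normalization, and they carry no test.

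None of the members compared was among the 5 genes most like H19, Igf2 or Meg3; Cdkn1c, and H19 against the other two, had too few counts to be compared. Of the members compared, Peg3 came closest to Meg3, at position 126 (r = 0.755), with Grb10 at position 1848 (0.469) and Rian at position 2093 (0.446). Dlk1 was the compared member closest to H19, at position 588 (r = 0.400), and Igf2 lay at position 12004 for H19 (r = −0.498), near the bottom of the order.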

How the data were processed

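The deposited values used are raw counts, whole numbers of reads per Ensembl gene in each of 12 libraries. Per the labels and the methods of the study, the authors made poly(A) libraries with TruSeq RNA v2, which does not mark strand, sequenced 50 bp single-end reads, aligned them to mm10 and counted them per gene; the submitters' processing notes name FastQC 0.11.5, STAR 2.5.2b and featureCounts of Subread 1.5.1. The strand setting is not given in the sources used here. A normalized table of the series was not used.

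Groups and replicate numbers came from the labels. These do not say whether replicates were separate cultures, so the p-values measure only the spread between these libraries. Symbols and exons came from GENCODE M21 on GRCm38 (48349 of 48709 genes named), promoters and microRNAs from RefSeq on GRCm38.p6.

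Genes that reached 5 counts in no fewer than 6 of 12 libraries were tested with the quasi-likelihood test of edgeR 4.0.16 (R 4.3.3, TMM, robust, no covariate, two-sided), with Benjamini-Hochberg adjustment over all 18847 genes and a threshold of 0.05, after the filter and threshold of the study. The SE of a log2 difference was taken from F, as the absolute difference over √F. The script was tested on simulated data. CPM are scaled by TMM. Relations between log2 levels within a group used exact permutation tests.

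Members and gene lists were chosen with earlier results of these data known. Named are all members, all tested genes of their domains, at most 8 called genes per list with at least 20 counts on average (largest log2 differences first), and the 5 genes most like H19, Igf2 and Meg3; other names were chosen after their values were seen. Alternatives were DESeq2 1.42.0, RLE scaling, other count filters, a replicate block and leaving out each library.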

Additional observations from a re-analysis of the deposited data

Results flagged for a closer look

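In 12 of 114 group measures (a named gene, or 1 of 4 ratios between members, in the 6 libraries of a group), the highest or lowest library stood farther from the nearest other, relative to the whole range, than Dixon's 95% critical value allows; chance alone gives about 5.7. Among the members, Igf2 was at 61.7 CPM in mimic replicate 4, where the other 5 mimic libraries had 22.5 to 31.9 CPM, and Mirg was at 18.9 CPM in mimic replicate 6, where the others had 16.3 to 17.2 CPM. In their domains, Dio3 was high in mimic replicate 5 (0.708 CPM, others 0.452 to 0.536 CPM), Zim1 in mimic replicate 2 (22.3 CPM, others 19.7 to 20.3 CPM), and Cd81 and Tssc4 in control replicate 1 (501.8 and 61.6 CPM). Slc22a18 was low in control replicate 2 (0.255 CPM, others 0.501 to 0.555 CPM), and Nap1l4 in mimic replicate 1 (184.8 CPM, others 192.5 to 196.2 CPM). On the other lists, control replicate 1 was high in Igfbp4 (160.7 CPM, others 95.0 to 114 CPM) and Cdkn2c (13.6 CPM, others 10.1 to 11.1 CPM), control replicate 2 in Igfbp7 (23.7 CPM, others 17.1 to 18.6 CPM) and mimic replicate 1 in Smc3 (91.3 CPM, others 88.1 to 89.1 CPM). Control replicate 1, the library with the fewest counts, held 4 of the 12.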

How the results depend on the processing

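The count of members called lower, 4, ranged from 2 (without control replicate 5 or 6 or without mimic replicate 1) to 5 (without control replicate 1, where Meg3 was added, or without mimic replicate 4, where Igf2 was added) over the libraries left out, and was 5 with DESeq2, where Meg3 was added. With no low-count filter it was 3. Wherever the count fell, the members lost were Plagl1, Grb10 or both. The count of genes of the insulin-like growth factor axis called lower, 4, ranged from 4 to 7 (without mimic replicate 2). The 1 CDK inhibitor called lower became 2 with DESeq2, 3 with a filter of 20 counts, and 1 to 2 over the libraries left out (2 without control replicate 1, 2 or 3 or without mimic replicate 3). All other counts stayed within 1.5 times, and no direction of a called result was reversed; of the named genes that are not members, 14 values lost the threshold and 8 gained it. The cause was not tested. The replicate numbers did not pair the samples (same-number correlations from −0.22 to 0.32, and no library correlated best with its own number). With a replicate block, edgeR called 1950 genes higher and 1709 lower, against 2163 and 2019 without the block, and the same numbers of members (1 and 4), of imprint regulators (4 and 1), of Notch genes (6 and 3) and of CDK inhibitors (2 and 1); other imprinted genes called higher became 4 in place of 5, and genes of the insulin-like growth factor axis called higher 6 in place of 7. Depth limits H19, Cdkn1c, Dio3 and other transcripts with under 100 counts per library on average.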
